A study of Danio rerio with 4 samples.

Results

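The genes of CCT (also called TRiC), the chaperonin of the cytosol, were followed in whole wild-type zebrafish embryos exposed to the compound SYP-3343. The members were chosen by gene name: tcp1, cct2, cct3, cct4, cct5, cct6a, cct7 and cct8. Of these 8 names, 7 matched 8 of the 28290 entries of the count table, because 2 entries carry the name cct2 and none carries the name cct6a. The name table used here gives the single remaining entry of that family, ENSDARG00000021252, the name CCT6B, while RefSeq's zebrafish gene table (assembly GRCz12tu) holds 1 gene named cct6a and 0 named cct6b. Whether the CCT6B entry is the cct6a gene was not settled, so it is given beside the 8 entries and kept out of their counts. It was added after its values were seen.

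The SYP-3343 group holds 2 libraries from wild-type embryos exposed at 8 µg/L between 3 and 24 hours post fertilization (hpf). The control group holds 2 libraries from wild-type embryos labelled untreated, listed with the same window of 3 to 24 hpf. The design text names 40 embryos without saying whether that is per group or per library, and each library is a pool of whole embryos. The labels call the libraries of a group biological replicates and do not say whether they came from separate clutches or tanks, and the p-values given below therefore reflect the spread of these libraries, which may be in part technical.

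CCT is built of stacked rings of different but related subunits, each encoded by its own gene. Newly made actin and tubulin are handed to it by the prefoldin complex or bind it directly, and closing of the rings, driven by ATP, lets them fold inside. Other proteins fold in it as well, among them beta subunits of G proteins. In zebrafish embryos it is known for its part in folding the actin, tubulin and myosin of growing muscle and nerve cells.

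The libraries held 49075203 and 49962016 counts in SYP-3343 replicates 1 and 2, and 46165614 and 59054470 in control replicates 1 and 2. Counts were scaled by TMM, which sets libraries to a common level through the bulk of the genes. They are given as CPM, in which a count is divided by its library's total times its TMM factor, then multiplied by a constant. CPM values therefore add up to different totals in different libraries, larger where the TMM factor is smaller. The TMM factors fell apart by group, at 0.923 and 0.86 in SYP-3343 against 1.11 or more in controls. The 20 most abundant genes of each library took 14.6% and 15.4% of the counts in SYP-3343 and 10.2% and 10.3% in controls. Across genes, the libraries of a group correlated at r = 0.9953 in SYP-3343 and 0.9948 in controls, against 0.9773 to 0.9785 between groups. Checked against markers of muscle, neurons, epidermis, yolk layer, erythroid cells and notochord, the libraries held counts of every marker matched except 1 copy of the yolk layer gene FABP1, which was at 0 in all 4.

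With TMM scaling, transcripts of every CCT subunit entry were more abundant in SYP-3343 embryos. With library size alone cct3 was not, at a log2 fold change of -0.06. Under TMM all 8 entries rose at an adjusted p under 0.05, by 1.21-fold (cct3) to 1.93-fold (the smaller cct2 entry), and none fell. Over all 22647 genes tested, 16.6% were called higher and 15.3% lower. Summed over the 8 entries, CCT transcripts stood at 3859 and 4293 CPM in SYP-3343 libraries and at 2729 and 2643 CPM in controls. The means were 4076 ± 307 CPM in SYP-3343 and 2686 ± 61.2 CPM in controls (SD, n = 2 each), a ratio of 1.52, and both SYP-3343 libraries lay above both controls. With 2 libraries against 2 an exact permutation test cannot give less than p = 0.333, which is the value here (two-sided), so calls rest on edgeR's quasi-likelihood test, which shares its estimate of spread over all genes.

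The median log2 fold change of the 8 entries was 0.65, against -0.01 over all genes tested, whose 75th and 95th percentiles were 0.28 and 0.91. With the CCT6B entry the median was 0.71 over 9 entries, of which 9 were called higher. With the counts of both cct2 entries added together it was 0.58, and 7 of 7 entries were called higher. In no entry did the groups overlap, but this held for 66% of all genes tested. Both SYP-3343 libraries lay above both controls in all 8, a state that held for 32.2% of all genes tested. In pooled whole embryos, a change in the share of cells of a type and a change in RNA per cell cannot be told apart.

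**Figure D1:**
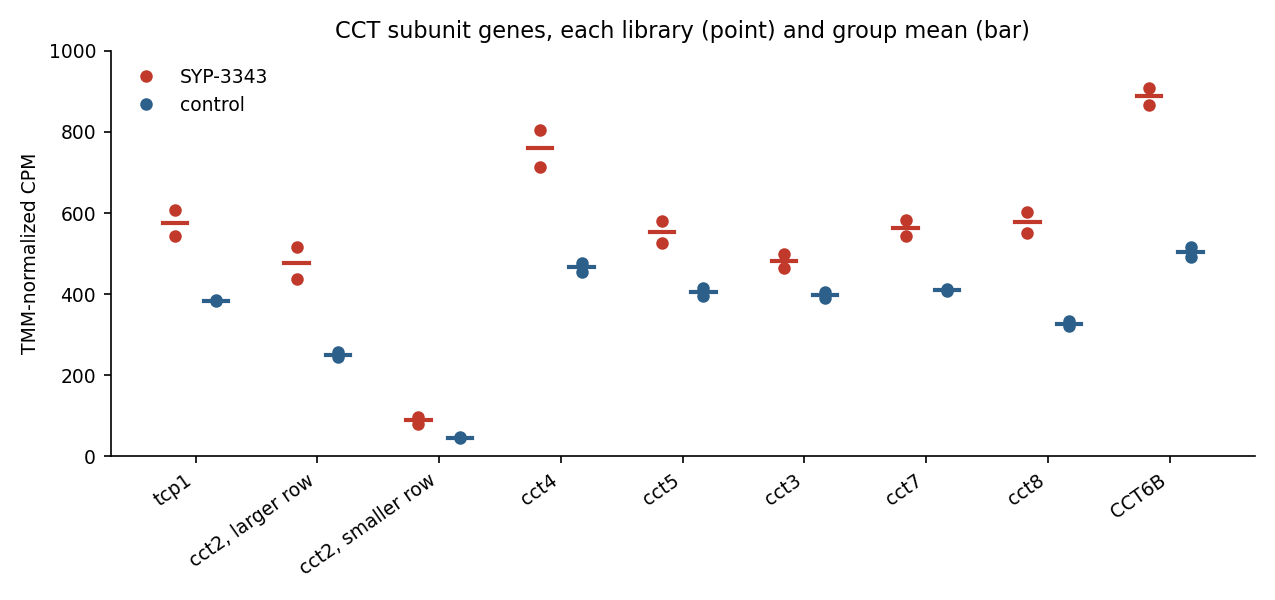
TMM-normalized CPM of each CCT entry in each library (points) with the group mean (bar), SYP-3343 left of control; the CCT6B entry stands last. The SYP-3343 points lie above the control points in every entry, with cct3 the nearest (463 and 500 against 404 and 391 CPM), and heights of different genes are not comparable because they are not per length.

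The subunits that bind ATP most tightly in yeast come first: tcp1, cct2, cct4 and cct5. tcp1 (ENSDARG00000017891), the alpha subunit that gave the complex its older name, had 544 and 607 CPM in SYP-3343 libraries and 383 and 385 CPM in controls. The controls were nearly equal, and the lower SYP-3343 library was still well above them. Its means of 575 ± 44.3 CPM in SYP-3343 and 384 ± 1.28 CPM in controls (SD, n = 2 each) gave a log2 fold change of 0.58 ± 0.10 (SE, adjusted p = 0.000142, edgeR).

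cct2 encodes the beta subunit, and its 2 entries changed alike. The larger one (ENSDARG00000104674) had 438 and 516 CPM in SYP-3343 and 257 and 245 CPM in controls. The smaller one (ENSDARG00000087206) had 80.5 and 98.2 CPM in SYP-3343 and 47.5 and 44.9 CPM in controls. In both entries SYP-3343 replicate 2 was the highest library, and the groups lay far apart. The larger entry rose by a log2 of 0.93 ± 0.10 (edgeR adjusted p = 5.82e-07) and the smaller one by 0.95 ± 0.10 (edgeR adjusted p = 2.73e-07). Counts of the smaller entry were 18.4% and 19.0% of those of the larger one in SYP-3343, and 18.5% and 18.3% in controls. RefSeq's table holds 1 gene named cct2, and whether reads of 1 gene were split between the entries cannot be told from these counts. With both added together, cct2 rose by 0.93 on the log2 scale.

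cct4, the delta subunit, is one of those that touch actin in mammalian CCT. Its entry (ENSDARG00000013475) had 714 and 805 CPM in SYP-3343 and 477 and 454 CPM in controls. The groups did not overlap, and the log2 fold change was 0.71 ± 0.11 (edgeR adjusted p = 2.74e-05). cct5, the epsilon subunit (ENSDARG00000045399), had 526 and 580 CPM in SYP-3343 and 414 and 394 CPM in controls. It rose by less than cct2 and cct4 did, with a log2 fold change of 0.45 ± 0.10 (edgeR adjusted p = 0.00165). In RefSeq's table the span of cct5 overlaps that of the gene cmbl, and no source used here gives the strand setting of the counting, so reads of that neighbour may be among its counts.

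The remaining subunits bind ATP weakly in yeast. cct3, the gamma subunit (ENSDARG00000016173), had 463 and 500 CPM in SYP-3343 and 404 and 391 CPM in controls. It was the entry whose groups lay closest, and it rose by a log2 of 0.28 ± 0.10 (edgeR adjusted p = 0.037). This call was lost when a single library was left out: the adjusted p was 0.0957 without control replicate 1, 0.182 without control replicate 2 and 0.235 without SYP-3343 replicate 2, while the log2 fold change stayed between 0.22 and 0.33. In these fits 15.6%, 14.3% and 12.4% of all genes were called higher, and 13% without SYP-3343 replicate 1, where cct3 kept its call.

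cct7, the eta subunit (ENSDARG00000007385), had 542 and 583 CPM in SYP-3343 and 413 and 408 CPM in controls. Its log2 fold change of 0.46 ± 0.10 (edgeR adjusted p = 0.00134) was close to that of cct5. cct8, the theta subunit (ENSDARG00000008243), had 551 and 603 CPM in SYP-3343 and 333 and 321 CPM in controls. It rose further, by a log2 of 0.82 ± 0.10 (edgeR adjusted p = 2.12e-06). The CCT6B entry, named for the zeta subunit, had 867 and 909 CPM in SYP-3343 and 517 and 491 CPM in controls. Its log2 fold change of 0.82 ± 0.11 (edgeR adjusted p = 4.15e-06) was as large as that of cct8. Neither entry's groups overlapped.

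The size of these changes depends on how libraries are scaled, and the scaling factors differ between the groups. RLE factors left 8 of 8 entries called higher (17% of all genes were). Upper-quartile factors left 7 of 8 (13.4% of all genes higher, 19.7% lower), without cct3 (log2 0.21, adjusted p = 0.111). With library size alone 5 of 8 entries were called higher, and the members' median log2 fold change was 0.31. Under that scaling the median of all genes moved to -0.35, and 6.2% of genes were called higher against 41.4% lower. cct3 then turned to -0.06 (adjusted p = 0.579), cct5 stood at 0.12 (adjusted p = 0.241) and cct7 at 0.12 (adjusted p = 0.22). Relative to the median of all genes under that scaling, the 8 entries lay between 0.29 (cct3) and 0.96 (the smaller cct2 entry) above it. Scaling factors shift all genes nearly alike, so this distance could hardly change with the scaling. Before any scaling factor, the 8 entries held 0.356% and 0.369% of all counts in SYP-3343 and 0.302% and 0.301% in controls.

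**Figure D2:**
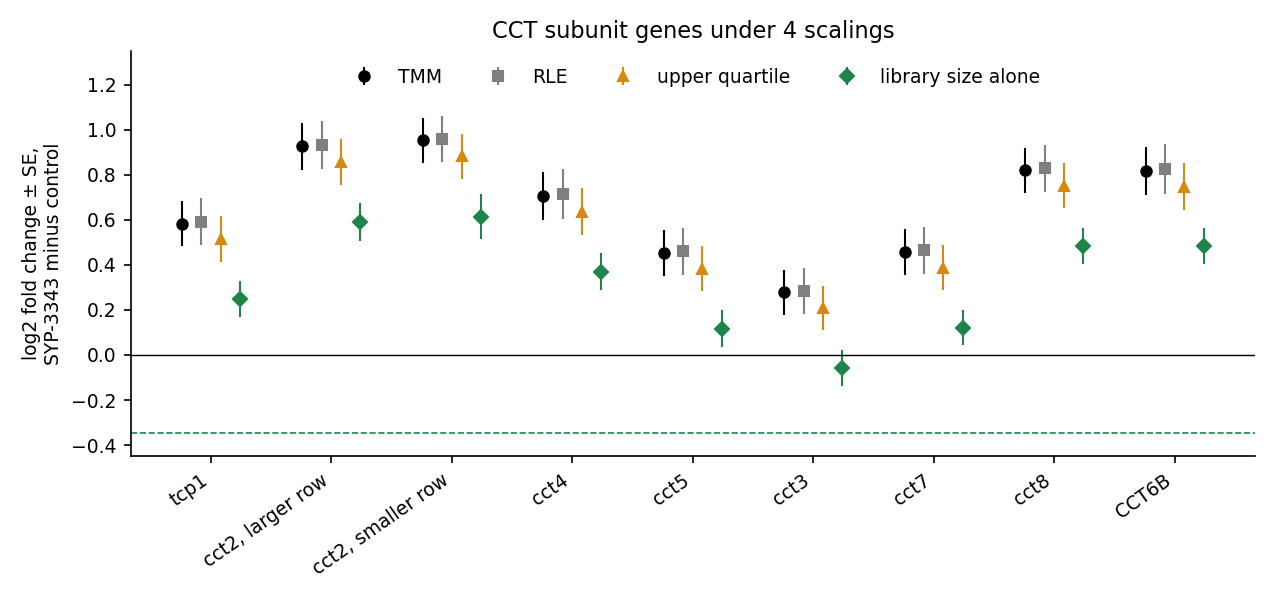
Log2 fold change (SYP-3343 minus control, ± SE) of each CCT entry under 4 scalings, with the median of all genes under library size alone as a dashed line at -0.35. Library size alone lowers every entry and takes cct3 to -0.06. All entries stay above the dashed line, which moves with them, since a change of scaling shifts all genes nearly alike.

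The subunits did not change in equal measure. A subunit's share of the library's summed CCT counts does not depend on scaling factors. It was computed over the 8 entries, with exact binomial 95% intervals that cover counting error only. The larger cct2 entry took 11.4% and 12.0% of CCT counts in SYP-3343 and 9.42% and 9.28% in controls. The share of cct3 was 12.0% (interval 11.85 to 12.16) and 11.7% (11.5 to 11.79) in SYP-3343, and 14.8% (14.63 to 15.01) and 14.8% (14.61 to 14.94) in controls. These were the widest gaps, of 2.33 percentage points up for cct2 and -2.97 points for cct3, each beyond the spread within either group.

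The shares of cct8 (14.3% and 14.1% in SYP-3343, 12.2% and 12.2% in controls) and cct4 (18.5% and 18.8% in SYP-3343, 17.5% and 17.2% in controls) were also higher in both SYP-3343 libraries. Those of cct5 (13.6% and 13.5% in SYP-3343, 15.2% and 14.9% in controls) and cct7 (14.1% and 13.6% in SYP-3343, 15.1% and 15.4% in controls) were lower in both. tcp1 alone among the 8 entries overlapped between groups, at 14.1% and 14.1% in SYP-3343 and 14.0% and 14.6% in controls. How many of all genes do not overlap when set against the CCT sum was not computed. With TMM the groups of 66% of all genes tested did not overlap, so a lack of overlap alone says little.

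**Figure D3:**
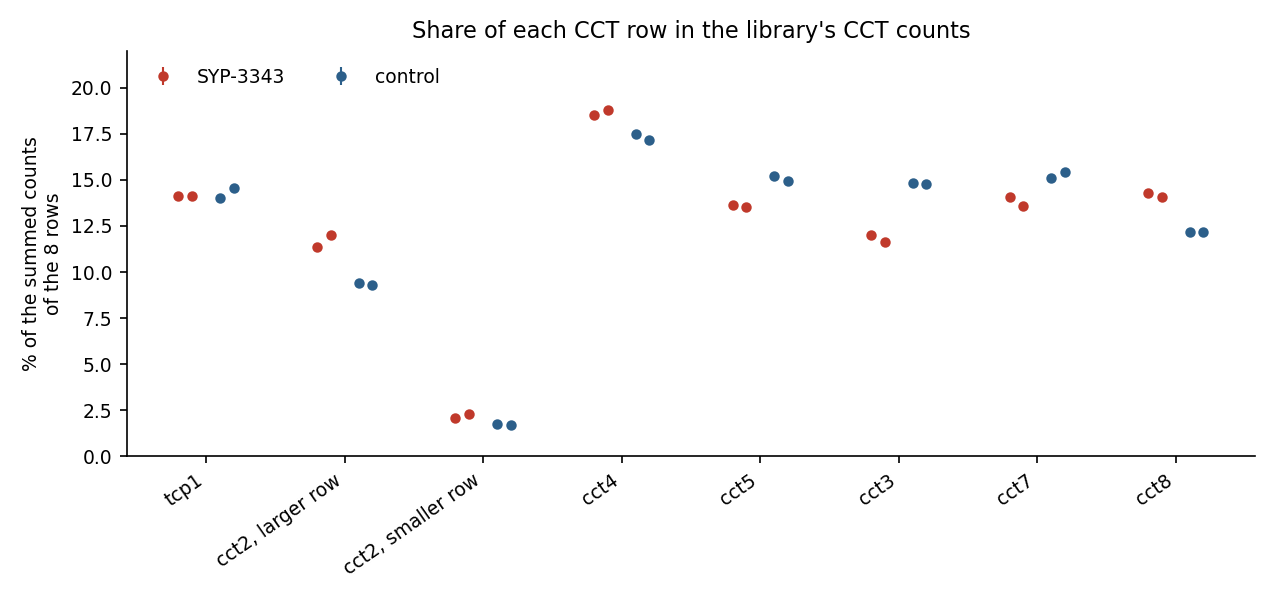
Share of each CCT entry in its library's summed CCT counts (percent), 1 point a library, SYP-3343 left of control; exact binomial intervals are smaller than the points. cct2, cct4 and cct8 take more of the sum in SYP-3343, cct3, cct5 and cct7 less, and tcp1 overlaps. In the edgeR test relative to the CCT sum, cct4, cct5 and cct7 did not pass.

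To test these differences, libraries were scaled to their summed CCT counts in place of TMM and the edgeR test was repeated, a comparison chosen after the values were seen. Each entry is part of that sum, so a rise of some forces a fall of others, and these are not independent results. The sum leaves out the CCT6B entry, which stood at a log2 of 0.22 ± 0.09 relative to it. Under this scaling 3.34% of all genes were called higher and 64.5% lower. Relative to the CCT sum the larger cct2 entry rose by a log2 of 0.32 ± 0.09 (adjusted p = 0.0027), and the smaller one by 0.35 ± 0.12 (adjusted p = 0.00854). cct8 rose by 0.22 ± 0.09 (adjusted p = 0.0309), and cct3 fell by 0.32 (adjusted p = 0.00189). The calls of the larger cct2 entry and of cct3 held when each library in turn was left out. That of cct8 was lost in each of the 4 (adjusted p 0.0825 to 0.123). That of the smaller cct2 entry was lost without control replicate 1 (0.0622), control replicate 2 (0.0983) or SYP-3343 replicate 2 (0.0565). tcp1 (-0.02, adjusted p = 0.858), cct4 (0.10, adjusted p = 0.286), cct5 (-0.15, adjusted p = 0.135) and cct7 (-0.14, adjusted p = 0.148) did not pass.

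Genes that work with CCT were compared next, in lists chosen with earlier results of these data known. Their names are given as the name table spells them. Counts of calls in the lists are to be read beside the shares of all genes. These were 16.6% higher and 15.3% lower with TMM, 13.4% and 19.7% with upper-quartile factors, and 6.2% and 41.4% with library size alone. Prefoldin hands unfolded actin and tubulin to CCT, and 4 of its 6 subunit genes rose while 2 did not pass, with a median log2 fold change of 0.30. The prefoldin subunit gene VBP1 had 94.0 and 101.0 CPM in SYP-3343 and 67.5 and 65.5 CPM in controls, a rise of 0.55 ± 0.09 (edgeR adjusted p = 6.67e-05). PFDN5 had 115 and 129 CPM in SYP-3343 and 89.2 and 79.3 CPM in controls, a rise of 0.54 ± 0.10 (edgeR adjusted p = 0.000167). Both genes lay apart by group. PFDN4 (0.30, adjusted p = 0.0208) and PFDN1 (0.30, adjusted p = 0.0406) rose by less. The count was 2 when control replicate 2 or SYP-3343 replicate 2 was left out, since both lost their calls: PFDN4 stood at adjusted p 0.16 and 0.147, and PFDN1 at 0.11 and 0.135. PFDN1 also lost its call without control replicate 1 (0.0582) and without SYP-3343 replicate 1 (0.177). With library size alone the list's median was -0.03 and none of its genes was called. CCT counts were 9.83 and 10.1 times the prefoldin counts in SYP-3343 libraries and 8.28 and 8.64 times in controls.

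Phosducin-like proteins bind CCT and adjust its work on actin, tubulin and G protein beta subunits. Of their 3 genes 2 rose and 1 fell, with a median of 0.26 that turned to -0.08 with library size alone. PDCL3 had 17.2 and 19.4 CPM in SYP-3343 and 11.8 and 11.5 CPM in controls, a rise of 0.66 ± 0.12 (edgeR adjusted p = 0.000203). TXNDC9 rose by 0.26 ± 0.09 (edgeR adjusted p = 0.0392), with 100 and 109 CPM in SYP-3343 against 92.1 and 83.5 CPM in controls. PDCL, the cofactor of G protein beta subunits, fell by 0.25 (edgeR adjusted p = 0.0377), with 62.9 and 64.2 CPM in SYP-3343 against 76.8 and 74.2 CPM in controls. The calls of both small changes depended on single libraries: TXNDC9 stood at adjusted p 0.223 without control replicate 2 and 0.279 without SYP-3343 replicate 2, and PDCL between 0.0509 and 0.188 over the 4 libraries left out.

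Among the main clients, most actin genes rose and most tubulin genes fell. Of 8 actin genes 6 rose and 2 did not pass, with a median of 0.53, and with library size alone 4 were called higher and 1 lower. The cytoplasmic beta-actin gene actb2 had 12075 and 13200 CPM in SYP-3343 and 4089 and 3989 CPM in controls, a log2 fold change of 1.65 ± 0.18 (edgeR adjusted p = 3.51e-07). actb1 rose by 1.06 ± 0.16 (edgeR adjusted p = 2.32e-05). Groups were far apart in both. The smooth muscle actin acta2 rose by 0.88 ± 0.16 (edgeR adjusted p = 0.000201), with 28.1 and 20.1 CPM in SYP-3343 and 15.9 and 10.6 CPM in controls. This call was lost with the test of DESeq2 (0.87, DESeq2 adjusted p = 0.0576). The heart and muscle actin actc1b rose by 0.63 ± 0.18 (edgeR adjusted p = 0.00985), a call lost without control replicate 1 (adjusted p = 0.254), control replicate 2 (0.213) or SYP-3343 replicate 2 (0.0745). The ACTA1 copy ENSDARG00000055618 rose by 0.43 ± 0.12 (edgeR adjusted p = 0.00943), a call lost without control replicate 1 (0.103) or SYP-3343 replicate 2 (0.165). Without either of these libraries 3 of the 8 actins were called. Actin genes are near-identical in their coding sequence, so how reads were shared among them is uncertain. CCT counts were 0.128 and 0.125 times the summed actin counts in SYP-3343 and 0.174 and 0.166 times in controls.

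Of 10 alpha tubulin genes 6 fell, 4 did not pass and none rose, with a median of -0.33. tuba2 had 81.7 and 84.4 CPM in SYP-3343 and 129 and 145 CPM in controls, and fell by 0.72 (edgeR adjusted p = 3.88e-06). tuba8l3 fell by 0.66 (edgeR adjusted p = 8.59e-06), and in both genes the groups lay apart. tuba1c (-0.45, adjusted p = 0.00589), tuba5 (-0.33, adjusted p = 0.0139) and tuba1b (-0.32, adjusted p = 0.0217) also fell. Fewer alpha tubulins were called without control replicate 1 or SYP-3343 replicate 1, but fewer of all genes were called in these fits too. Without SYP-3343 replicate 1, tuba1c (log2 fold change -0.29), tuba5 (-0.31) and tuba1b (-0.21) lost their calls. Without control replicate 1, tuba5 (-0.31) and tuba1b (-0.33) lost theirs, and tuba1b did so without control replicate 2 too (-0.31). CCT counts were 1.34 and 1.24 times the alpha tubulin counts in SYP-3343 libraries and 0.675 and 0.645 times in controls.

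Of 8 beta and gamma tubulin genes 6 fell, 1 rose and 1 did not pass, with a median of -0.49. tubb5 had 405 and 489 CPM in SYP-3343 and 824 and 834 CPM in controls, and fell by 0.89 (edgeR adjusted p = 2.76e-06). tubb4b was the one that rose, with 1892 and 2092 CPM in SYP-3343 and 1002 and 1038 CPM in controls, a log2 fold change of 0.97 ± 0.12 (edgeR adjusted p = 3.12e-06). The groups of both genes lay wide apart, in opposite directions. The summed level of the list, which includes tubb4b, did not fall. It overlapped between groups, at 3174 and 3624 CPM in SYP-3343 and 3166 and 3358 CPM in controls. tubb4bl (-0.66, adjusted p = 1.33e-05), the TUBB2B copy ENSDARG00000039522 (-0.58, adjusted p = 6.66e-05) and TUBG1, the gamma tubulin of microtubule-organizing centres (-0.44, adjusted p = 0.00123), fell as well. Tubulin genes too are near-identical, with the same limit on how reads were assigned. Markers of neurons, which are rich in tubulin, moved the same way: 8 of 11 fell and 1 rose, and their summed level was 1412 and 1505 CPM in SYP-3343 against 1685 and 1679 CPM in controls. Their part in the tubulin result was not tested.

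The tubulin folding cofactors take tubulin over from CCT. Of 8 genes 2 fell, 6 did not pass and none rose, with a median of -0.18. TBCC fell by 0.51 (edgeR adjusted p = 0.00803), with 8.48 and 7.64 CPM in SYP-3343 and 12.2 and 10.8 CPM in controls, and tbce fell by 0.34 (edgeR adjusted p = 0.026). TBCA (-0.22), ARL2 (-0.27) and TBCB (0.20) had adjusted p-values of 0.0782, 0.0883 and 0.0971. Without control replicate 1 TBCB was called higher (0.28, adjusted p = 0.0484). The count of genes that fell was 1 without SYP-3343 replicate 1 and 0 without SYP-3343 replicate 2, when TBCC stood at 0.0739; tbce lost its call without control replicate 2 (0.127) and without either SYP-3343 library (0.0759 and 0.15).

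**Figure D4:**
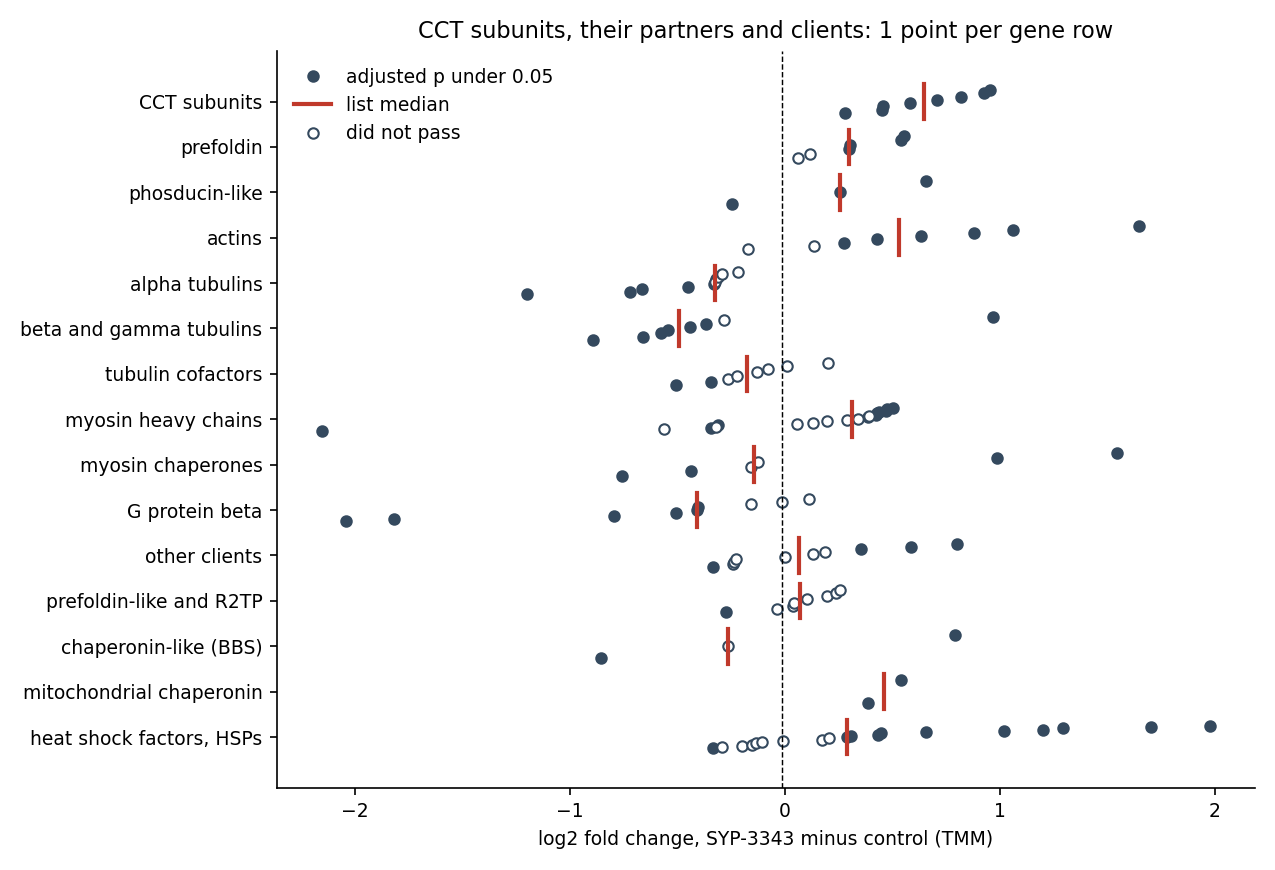
Log2 fold change (SYP-3343 minus control, TMM) of each gene of the CCT list and of the lists of partners and clients, 1 point a gene, filled where the adjusted p is under 0.05, with the list median as a red bar and the median of all genes (-0.01) as a dashed line. CCT subunits and most actins lie to the right, most tubulins and G protein beta subunits to the left.

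Myosin heavy chains split. Of 18 genes 7 rose, 3 fell and 8 did not pass, with a median of 0.31. With library size alone the median turned to -0.02, none rose and 6 fell, against 6.2% of all genes higher and 41.4% lower. Leaving out control replicate 1 gave 4 higher and 3 lower, and leaving out SYP-3343 replicate 2 gave 6 higher and 1 lower. The fast muscle chain myhb fell by 2.16 (edgeR adjusted p = 3.51e-11), with 9.16 and 7.17 CPM in SYP-3343 and 39.0 and 34.0 CPM in controls. Far more abundant were the chains myhz1.1 (0.39, edgeR adjusted p = 0.0681), myhz1.2 (0.34, 0.074), myhz2 (0.29, 0.101) and myhz1.3 (0.19, 0.304). None of these passed. The first had 5485 and 5871 CPM in SYP-3343 and 3893 and 4770 CPM in controls, so myhb does not stand for fast myosin as a whole. The nonmuscle chains MYH10 (0.50, adjusted p = 0.000362) and MYH9 copy ENSDARG00000001014 (0.44, adjusted p = 0.000959) rose, as did the slow muscle chain smyhc1 (0.47, adjusted p = 0.00245; 0.0718 without control replicate 1) and MYH7 (0.39, adjusted p = 0.00283). Among 6 myosin chaperone genes 2 rose, 2 fell and 2 did not pass, with a median of -0.14, and with library size alone 2 rose and 4 fell. HSP90AA1, the entry matched to the listed name hsp90aa1.2, rose by 1.54 ± 0.10 (edgeR adjusted p = 1.42e-10). UNC45B, which folds muscle myosin, fell by 0.76 (edgeR adjusted p = 2.01e-05). The methyltransferase gene SMYD1, listed with the myosin chaperones, has 2 copies that moved apart: ENSDARG00000009280 rose by 0.99 ± 0.09 (edgeR adjusted p = 4.09e-08) and ENSDARG00000091253 fell by 0.44 (edgeR adjusted p = 0.00192). UNC45A (-0.16, adjusted p = 0.282) did not pass. Nor did hsp90aa1.1, the other HSP90 entry of this list (-0.13, edgeR adjusted p = 0.337). It had 94.4 and 94.4 CPM in SYP-3343 and 94.6 and 111 CPM in controls. Fast muscle markers also split, with 8 of 13 higher and 4 lower, and their summed level was 20550 and 23670 CPM in SYP-3343 and 16230 and 15790 CPM in controls. Upper-quartile factors gave 5 of them higher and 4 lower (13.4% and 19.7% of all genes). With library size alone 1 was called higher and 4 lower (6.2% and 41.4% of all genes). Without any 1 of control replicate 1, control replicate 2 or SYP-3343 replicate 2, 1 or 2 of these markers were called higher and 4 lower. The falls were led by the TNNI2 copies ENSDARG00000035958 (-1.05, adjusted p = 7.11e-08) and ENSDARG00000045592 (-2.90, adjusted p = 4.32e-06). Several of the 13 entries are TNNI2 copies, all matched in capital form to the single listed name tnni2a.4. These copies are among both the rises and the falls, so the split rests in part on how names were matched.

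Beta subunits of G proteins, WD40 proteins that CCT folds in mammals, fell in 6 of 9 genes, with a median of -0.41, and none rose. With library size alone 9 of 9 were called lower, against 41.4% of all genes. The list's median was -0.37 without control replicate 2 and -0.30 without SYP-3343 replicate 2. GNB3, the entry matched to the listed name gnb3a, had 41.8 and 31.7 CPM in SYP-3343 and 141 and 119 CPM in controls. It fell by 1.82 (edgeR adjusted p = 1.23e-10). gnb3b (-2.04, adjusted p = 0.000243), GNB5 copy ENSDARG00000055377 (-0.80, adjusted p = 0.000709) and GNB2 (-0.51, adjusted p = 0.000357) fell as well, while gnb1a (0.11) and gnb1b (-0.01) did not pass. The other GNB5 copy, ENSDARG00000099685, fell by 0.41 (adjusted p = 0.0181), a call lost without control replicate 2 (0.112) or SYP-3343 replicate 2 (0.246). Of 10 other proteins described as CCT clients in mammals or yeast, 3 rose, 1 fell and 6 did not pass, with a median of 0.06 that turned to -0.27 with library size alone. The balance of their calls turned with scaling, as did that of all genes. Upper-quartile factors gave 2 higher and 2 lower (13.4% and 19.7% of all genes). Library size alone gave 1 higher and 5 lower (6.2% and 41.4% of all genes). The mitotic regulator FZR1 (0.80, adjusted p = 7.70e-07) and the cyclin gene CCNE2 (0.58, adjusted p = 0.000209) rose. hdac3 fell by 0.34 (adjusted p = 0.00812; 0.0846 without SYP-3343 replicate 1), and STAT3 rose by 0.35 (adjusted p = 0.0277; 0.196 without control replicate 2 and 0.374 without SYP-3343 replicate 1). fzr1b (-0.24, adjusted p = 0.0887) and CDC20 (0.19, adjusted p = 0.146) did not pass. Leaving out control replicate 2 gave 2 clients higher and 2 lower, and leaving out SYP-3343 replicate 1 gave 2 higher and none lower. Proliferation markers were mixed, with 2 higher and 3 lower of 10, led by the replication helicase genes MCM3 (-0.66, adjusted p = 1.60e-05) and MCM7 (0.42, adjusted p = 0.00187; 0.0639 without SYP-3343 replicate 2). Without SYP-3343 replicate 2 none of them was called higher and 3 lower, and with library size alone none higher and 6 lower.

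Related chaperone systems were set beside CCT. The mitochondrial chaperonin HSPD1 had 339 and 325 CPM in SYP-3343 and 228 and 228 CPM in controls, a rise of 0.54 ± 0.09 (edgeR adjusted p = 0.000123). Its lid HSPE1 rose by 0.38 ± 0.09 (edgeR adjusted p = 0.00362), a call lost without SYP-3343 replicate 2 (0.0539). With library size alone neither passed (0.21 and 0.05). Of 3 chaperonin-like genes of the ciliary BBS group, MKKS fell by 0.86 (edgeR adjusted p = 0.00334), bbs12 rose by 0.79 (edgeR adjusted p = 0.0362) and bbs10 (-0.26, adjusted p = 0.417) did not pass. bbs12 lost its call without control replicate 1 (0.22) or either SYP-3343 library (0.129 and 0.0519). Of 8 prefoldin-like and R2TP cochaperone genes 1 fell, URI1 (-0.27, edgeR adjusted p = 0.0313), and 7 did not pass, among them rpap3 (0.26, adjusted p = 0.0524), pih1d1 (0.20), uxt (0.24), pdrg1 (0.10) and RUVBL1 (0.04). URI1 lost its call without control replicate 1 (0.138) or either SYP-3343 library (0.0594 and 0.215).

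Of 19 genes of heat shock factors, HSP70, HSP90 and their partners, 10 rose, 1 fell and 8 did not pass, with a median of 0.29 that turned to -0.05 with library size alone. With library size alone 5 were called higher and 7 lower (6.2% and 41.4% of all genes). Upper-quartile factors gave 8 higher and 3 lower (13.4% and 19.7% of all genes). Leaving out control replicate 1 or SYP-3343 replicate 1 gave 8 higher and none lower. The smallest adjusted p-values were those of hsp70.3 (3.94-fold), HSPH1 (3.25-fold), HSP90AB1 (2.45-fold), hsp70.1 (2.03-fold) and HSPA8 copy ENSDARG00000068992 (2.30-fold), which rose at edgeR adjusted p of 1.13e-05 or less, while hsf1 (0.17, adjusted p = 0.27) and HSF2 (-0.11, adjusted p = 0.519) did not pass.

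Among markers of other cell types, those of the epidermis stood out, with 8 of 10 higher and none lower. With library size alone 6 of these markers were called higher and 1 lower, against 6.2% and 41.4% of all genes. Their summed level was 24800 and 26970 CPM in SYP-3343 and 12450 and 11670 CPM in controls, led by the keratins cyt1l (1.57, adjusted p = 7.22e-08) and cyt1 (1.38, adjusted p = 6.18e-07). Notochord and cartilage markers fell in 5 of 13 genes and rose in 1, led by MATN1 (-3.29, adjusted p = 6.44e-14) and COL9A1 (0.435 times the control level, adjusted p = 9.24e-09), with a sum of 3342 and 3441 CPM in SYP-3343 and 4701 and 4487 CPM in controls. Leaving out either control library gave 3 of them lower and 1 higher, and library size alone gave 10 lower and 1 higher. The rise of 1 neuron marker was not called when control replicate 1 or SYP-3343 replicate 2 was left out, when 6 and 7 were lower. Neuron markers were led by the SNAP25 copy ENSDARG00000058117 (-0.75, adjusted p = 1.26e-05) and ISL1 (-0.50, adjusted p = 0.000196). Yolk layer markers (2 higher and 1 lower of 10 tested, apoeb at 0.66 with adjusted p = 0.000248) and erythroid markers (2 higher and 1 lower of 9, hbbe3 at 2.43 with adjusted p = 1.31e-10) had medians of 0.09 and 0.24, which turned to -0.24 and -0.10 with library size alone. Leaving out either control library gave 1 yolk layer marker higher and none lower, and leaving out SYP-3343 replicate 1 gave 3 higher and none lower, with 4 erythroid markers higher and 1 lower. Leaving out SYP-3343 replicate 2 gave 1 yolk layer marker higher and 1 lower. With TMM, the sums of the epidermal and fast muscle markers were higher in both SYP-3343 libraries than in both controls, like the summed CCT level. So were those of yolk layer markers (18290 and 19960 CPM in SYP-3343, 16760 and 16080 CPM in controls) and erythroid markers (4227 and 5337 CPM in SYP-3343, 4053 and 3711 CPM in controls). As shares of all counts, before any scaling factor, the yolk layer sum was lower in both SYP-3343 libraries. The erythroid sum then overlapped between groups, while the CCT, epidermal and fast muscle sums were still higher in both SYP-3343 libraries. The part of cell makeup in the CCT result was not tested.

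The genes whose pattern over the 4 libraries was most like the mean pattern of the CCT entries were sought among 4779 genes with a mean of at least 33.9 CPM, as the smallest Euclidean distance between centred log2(CPM + 1) values. They were TCF7L1, a transcription factor of Wnt signalling (distance 0.0345), RAN, the GTPase of nuclear transport (0.0346), rtn4b, a reticulon of the endoplasmic reticulum (0.037), fbxo2, an F-box gene (0.0388), and THOC5, of the mRNA export complex THO (0.0441). The CCT entries themselves lay between 0.0638 (cct4) and 0.368 (cct3) from their own mean. RAN had 728 and 820 CPM in SYP-3343 and 513 and 500 CPM in controls. Over 4 libraries in 2 groups a small distance says mainly that the fold changes are alike, and those of the 5 genes were 0.61 to 0.69 on the log2 scale.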

How the data were processed

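Poly-A RNA of whole embryos was sequenced in 2 SYP-3343 and 2 control libraries. The authors' deposited table holds raw counts of reads for each gene. The build GRCz11 and the tools DESeq2 1.14.1, featureCounts 1.6.2, HTSeq, HISAT2 and TopHat2 come from the list in the submitters' processing notes, which states no role for any of them. Neither the annotation nor the strandedness of counting is given in the sources used here. Of the 28290 entries, 25430 had Ensembl identifiers and 23607 a symbol.

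Genes kept by filterByExpr were scaled by TMM. The two-sided test was the quasi-likelihood F test of edgeR 4.0.16 (R 4.3.3), adjusted by Benjamini-Hochberg over 22647 genes with a threshold of 0.05. SE belongs to the log2 fold change and SD to 2 libraries. The biological coefficient of variation was 10.1%, and counting alone gives the smallest member count 2.03%. On simulated data the test recovered 26 of 56 genes changed 1.5-fold and 71 of 73 changed 2-fold, with 9 false calls in a fit of 22540 genes. The simulation gave every gene the same spread and set no shift in scaling between the groups. It changed far fewer genes than the 7225 called here, so its false calls are not the error rate of the reported calls. Alternatives used other scalings, filters, DESeq2 1.42.0, limma 3.58.1 (voom), a replicate block and libraries left out.

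The members and the lists (201 names: 155 found by symbol, 31 in capital form, 15 not found) were chosen with earlier results of these data known. The text names all members, from each pathway list the up to 5 genes with the smallest adjusted p (all in lists of 3 or fewer), from each marker list up to 2, and the 5 genes most like the members. CCT6B, FABP1, RUVBL1, gnb1a, gnb1b, CDC20, hsp90aa1.1, myhz1.1, myhz1.2, myhz1.3, myhz2, hsf1 and HSF2 fall outside that rule and were named after their values were seen. Levels per length and sequences are not given, because no transcript lengths or sequences of this build were used here.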

Additional observations from a re-analysis of the deposited data

How the results depend on the processing

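tcp1, both cct2 entries, cct4 and cct8 were called higher under every alternative tried, leaving aside the scaling to summed CCT counts. Relative to that sum, tcp1 and cct4 did not pass. The calls of cct3, cct5 and cct7 depended on the settings below, and the cause was not tested. Library size alone gave 1405 genes called higher and 9384 lower (13% of calls higher, against 52.2% with TMM), 5 of 8 CCT entries higher, a median log2 fold change of 0.309 for them, and 0.117 for cct5, 0.122 for cct7 and -0.0574 for cct3, the one entry that turned. Upper-quartile factors gave 3042 higher and 4462 lower (40.5% of calls higher), with cct3 at 0.208. With the replicate number as a block, 7 of 8 CCT entries were called (cct3 0.276, adjusted p = 0.0971), 3763 of all genes were called higher and 3485 lower, and the deviations of same-numbered libraries from their group means correlated at r = -0.04; whether a number marks a shared clutch, tank or day is not known, and the block was not used for the results. Without 1 library at a time cct3 lay between 0.217 and 0.334. Relative to the summed CCT counts, leaving out 1 library gave 0.207 to 0.23 for cct8, 0.279 to 0.412 for the smaller cct2 entry and -0.0454 to 0.00785 for tcp1, which turned without control replicate 2.

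Counts of genes called moved by over 1.5 times in these lists. Library size alone gave 0 for prefoldin, 7 for tubulin cofactors, 6 for myosin heavy chains, 3 for prefoldin-like and R2TP genes, 0 for the mitochondrial chaperonin, 5 for fast muscle, 6 for yolk and 11 for notochord. Upper-quartile factors gave 2 for prefoldin, 4 for tubulin cofactors and 1 for BBS genes. DESeq2 gave 1 for tubulin cofactors, 0 for prefoldin-like and R2TP genes and 1 for BBS genes. RLE factors and the CPM filter gave 2 for prefoldin-like and R2TP genes. The replicate block gave 1 for phosducin-like genes, 5 for fast muscle and 1 for yolk, and no low-count filter gave 1 for phosducin-like genes. Leaving out the 20 most abundant genes left 3 actins called, since it removes actins by construction. Without 1 library, the counts were 2 to 3 for prefoldin, 1 to 2 for phosducin-like, 0 to 3 for tubulin cofactors, 2 to 8 for alpha tubulins, 3 to 6 for actins, 2 to 4 for other clients, 0 to 1 for prefoldin-like and R2TP, 1 to 2 for BBS, 1 to 2 for mitochondrial, 3 to 6 for proliferation, 5 to 12 for fast muscle, 1 to 3 for yolk and 3 to 5 for erythroid genes, while myosin heavy chains (4 higher without control replicate 1, 1 lower without SYP-3343 replicate 2) and notochord markers (3 lower without either control library or with the block) moved in 1 direction. Whichever library was left out, fewer of all genes were called than in the main fit. Relative to the median of all genes, the medians of all 22 lists kept their side under the 4 scalings. This was nearly fixed in advance, because a change of scaling shifts all genes nearly alike.

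The level of each subunit per kilobase and the motif searches were not run, for lack of sequences. The smallest change simulated was 1.5-fold, of which 26 of 56 genes were called; changes of the size of cct3's were not simulated. A library left alone in its group is assumed to vary like the others.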
